A study of Mus musculus with 24 samples.

Results

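The chaperone and cochaperone genes of the mouse were followed in basal forebrain cholinergic neurons, across 4 groups of male mice that differed in genotype and in the diet of the dam. Members were the protein-coding genes whose symbols begin with Hspa, Hspb, Hspd, Hspe, Hsph, Hsp90, Dnaja, Dnajb, Dnajc or Cct and a digit. Dnajc28 and Cct8, which are triplicated in Ts65Dn mice, were left out. The rule found 79 genes among 55414 gene identifiers. They comprised 13 Hsp70 genes, 1 Hsp110 gene, 3 Hsp90 genes, 2 genes of the mitochondrial Hsp60/Hsp10 chaperonin, 8 small heat shock protein genes, 4 Dnaja, 13 Dnajb and 27 Dnajc genes, and 8 Cct genes. Families follow the symbols, so the Hsp110-like Hspa4 and Hspa4l are counted with Hsp70, and every Hspb gene with the small heat shock proteins. Of these, 78 had a count in at least 1 library and 65 passed the filter on low counts and were tested.

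Each library was made from about 500 neurons stained for choline acetyltransferase and laser-captured from the medial septal and diagonal band area at about 6 months of age, with 1 RNA-seq library per sample. The groups were Ts65Dn mice from dams on the supplemented diet (8 libraries), Ts65Dn mice from dams on the control diet (6 libraries), 2N mice from dams on the supplemented diet (4 libraries) and 2N mice from dams on the control diet (6 libraries). The diets held 5.0 g/kg and 1.1 g/kg choline chloride and reached the pups through the dam until weaning. All offspring ate the control diet afterwards, and all dams were trisomic Ts65Dn females mated to C57Bl/6J Eicher × C3H/HeSnJ F1 males. Ts65Dn mice model Down syndrome by an extra chromosome that holds many counterparts of the human genes, and also some genes that are not trisomic in people. 2N mice lack that chromosome. The comparisons address how genotype and maternal choline supplementation alter gene expression in these neurons. In captured pools of cells, fewer cells of a type and less RNA per cell cannot be told apart.

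Chaperones bind unfolded or partly folded proteins and use ATP cycles to release them for folding or degradation. Hsp70 proteins do so with J-domain cochaperones (the Dnaja, Dnajb and Dnajc proteins), which deliver clients and stimulate the ATPase, and with nucleotide exchange factors such as Hsp110. Hsp90 finishes the folding of kinases and receptors, the Cct ring encloses actin and tubulin, the Hsp60/Hsp10 chaperonin works in mitochondria, and small heat shock proteins hold unfolded proteins without ATP. Neurons rely on the constitutive members to recycle clathrin coats and to keep synaptic and axonal proteins soluble, while a heat shock response induces a separate group that includes Hspa1a, Hspa1b, Dnajb1 and Hspb1.

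Sequences around the start sites were searched for exact matches to DNA elements of the known stress responses. Heat shock factor binds alternating GAA and TTC units, searched here as a pair (GAANNTTC or TTCNNGAA) and as a triple (GAANNTTCNNGAA or TTCNNGAANNTTC). Each form reads as itself or as the other on the opposite strand, and a triple contains pairs. The endoplasmic reticulum stress element was searched on both strands as CCAAT, 9 bases of any kind and CCACG. The windows ran from 250 bases before to 50 after each RefSeq start on build GRCm38.p6, and 64 members had at least 1 window (83 windows). The 15 members that were not searched are Hspa8, Hspa9, Hspa13, Hsp90aa1, Hsp90ab1, Hspb2, Cct4, Dnajc2, Dnajc5, Dnajc5b, Dnajc11, Dnajc12, Dnajc18, Dnajc22 and Dnajc30. Stretches of 6 members that had a window follow, 5′ to 3′ on the coding strand, with a matched element in capitals. Hspa1a and Hspa1b are the classical heat-inducible pair, Hspe1 and Hsph1 hold a triple, and Hspa5 holds the endoplasmic reticulum element. Dnajb5 is the member with the smallest p-value in the expression tests and had no exact match to these elements.
Hspa1a: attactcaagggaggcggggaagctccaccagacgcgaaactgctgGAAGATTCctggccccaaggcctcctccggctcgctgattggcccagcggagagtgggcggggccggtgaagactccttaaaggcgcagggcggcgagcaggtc
Hspa1b: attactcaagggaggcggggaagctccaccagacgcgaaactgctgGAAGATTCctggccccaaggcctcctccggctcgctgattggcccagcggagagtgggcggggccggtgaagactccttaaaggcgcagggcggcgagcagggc
Hspe1: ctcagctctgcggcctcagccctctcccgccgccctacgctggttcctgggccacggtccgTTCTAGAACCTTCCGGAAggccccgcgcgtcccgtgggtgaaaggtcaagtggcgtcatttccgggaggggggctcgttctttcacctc
Hsph1: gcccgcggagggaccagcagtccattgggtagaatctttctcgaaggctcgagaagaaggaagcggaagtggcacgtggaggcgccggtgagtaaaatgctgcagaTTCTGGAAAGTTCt
Hspa5: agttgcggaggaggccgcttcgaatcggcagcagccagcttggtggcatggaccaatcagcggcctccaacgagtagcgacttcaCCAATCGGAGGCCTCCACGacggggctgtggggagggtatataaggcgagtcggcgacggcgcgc
Dnajb5: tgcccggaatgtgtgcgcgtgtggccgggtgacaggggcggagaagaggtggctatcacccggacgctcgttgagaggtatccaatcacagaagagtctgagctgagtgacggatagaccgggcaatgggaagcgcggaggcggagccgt
They lie at chr17:34972157-34972306 (minus strand), chr17:34959239-34959388 (minus strand), chr1:55087998-55088147 (plus strand), chr5:149636287-149636406 (minus strand), chr2:34771940-34772089 (plus strand) and chr4:42949717-42949866 (plus strand). Capitals mark a pair in Hspa1a and Hspa1b, triples (overlapping in Hspe1) in Hspe1 and Hsph1, and the endoplasmic reticulum stress element in Hspa5. A separate pair of Hsph1, at base -33 from its first start, is left in lower case.

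The start regions of Hspa1a and Hspa1b differed at 4 of 300 bases, and both held the pair at base -104. Hspd1 and Hspe1, which encode the ring and the lid of the mitochondrial chaperonin, are head-to-head neighbours. The triples found in their windows were the same bases, chr1:55088059-55088076, read from opposite strands. A triple was present in the windows of 4 members (Hspd1, Hspe1, Hsph1 and Dnajb6), or 6.25% of the members with a window, against 0.662% of all 27025 genes in the table. A pair was present in 31.2% of these members against 17.0% of all genes. The endoplasmic reticulum element was present in Hspa5, Hsp90b1 and Dnajc3, all of which act in the endoplasmic reticulum, or 4.69% of these members against 0.137% of all genes. A match is a description of the letters and not of a bound site. Dnajb1, a member of the heat-induced group, had a window and no match. The lack of an exact match therefore does not show that a member lacks such an element.

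Libraries held between 4688258 and 13443438 counts assigned to genes (median 10010353), and between 13102 and 22593 genes were detected. The label was checked against 9 cholinergic marker genes. Chat, the gene for choline acetyltransferase, was under 1 CPM (counts per 1000000 counts of the library, scaled by edgeR's trimmed mean of M values) in 1 of 8 supplemented Ts65Dn, 3 of 6 control-diet Ts65Dn, 1 of 4 supplemented 2N and 1 of 6 control-diet 2N libraries. The summed cholinergic markers were 208 to 402 CPM in supplemented Ts65Dn, 7.48 to 213 in control-diet Ts65Dn, 236 to 505 in supplemented 2N and 183 to 278 in control-diet 2N libraries. Summed oligodendrocyte markers were 716 to 3919 CPM and exceeded the cholinergic sum in each of the 24 libraries, and GABAergic markers reached 259 to 1251 CPM, so transcripts of other cell types were present throughout. The 3 lowest cholinergic sums were those of control-diet Ts65Dn replicates 3, 5 and 6 (7.48, 78.3 and 95.3 CPM), which also had glutamatergic marker sums of 799, 92.1 and 117 CPM. Control-diet 2N replicates 3 and 4 had glutamatergic sums of 98.3 and 147 CPM beside cholinergic sums of 183 and 222 CPM. Control-diet Ts65Dn replicate 3 and supplemented Ts65Dn replicate 7 detected the fewest genes (13102 and 13141). Mitochondrial ribosomal RNA took 17.8% to 43.3% of counts in supplemented Ts65Dn libraries and 13.5% to 29.3% in the other groups. Xist exceeded 50 counts in 4 libraries of animals described as male, 3 of them control-diet Ts65Dn and 1 supplemented 2N. The design text gives 6 mice per group while the labels give 8, 6, 4 and 6, and the columns of supplemented Ts65Dn replicates 2 and 5 stand among 2N columns in the deposited matrix. The labels were kept. Without the 4 libraries over 50 Xist counts 0 members were called in each of the 5 comparisons. Of all genes tested, 0.459% and 0.201% were then called for genotype on the control and supplemented diets. For diet in Ts65Dn, diet in 2N and the interaction the shares were 0.0956%, 0.00956% and 0.0191%. The median log2 fold change of members was -0.24 for genotype on the control diet (-0.36 with them), -0.23 on the supplemented diet (-0.28 with them) and 0.06 for diet in Ts65Dn (0.01 with them). Values without the other libraries that stand apart are given beside the results.

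The chaperone system of these samples was dominated by Hspa8 and the Hsp90 genes. By TPM, which divides each count by transcript length before scaling and so allows genes to be compared, Hspa8, the constitutive Hsc70 that uncoats clathrin vesicles, averaged 1503 TPM over the 24 libraries. Hsp90ab1 and Hsp90aa1, the constitutive and the inducible cytosolic Hsp90, averaged 1439 and 894 TPM, and Hsp90b1, the Hsp90 of the endoplasmic reticulum, averaged 168 TPM. These 4 genes made up 50.6% to 73.8% of all member TPM in a library (median 67.7%). Hsp90ab1 was the highest member in 13 libraries, Hspa8 in 10 and Hsp90aa1 in 1. Only 3 other members averaged over 100 TPM: Hspa5, the endoplasmic reticulum Hsp70 known as BiP (122 TPM), Hspa4l, an Hsp110-like exchange factor (107 TPM), and Dnaja1, a cytosolic J-protein partner of Hspa8 (107 TPM).

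**Figure D1:**
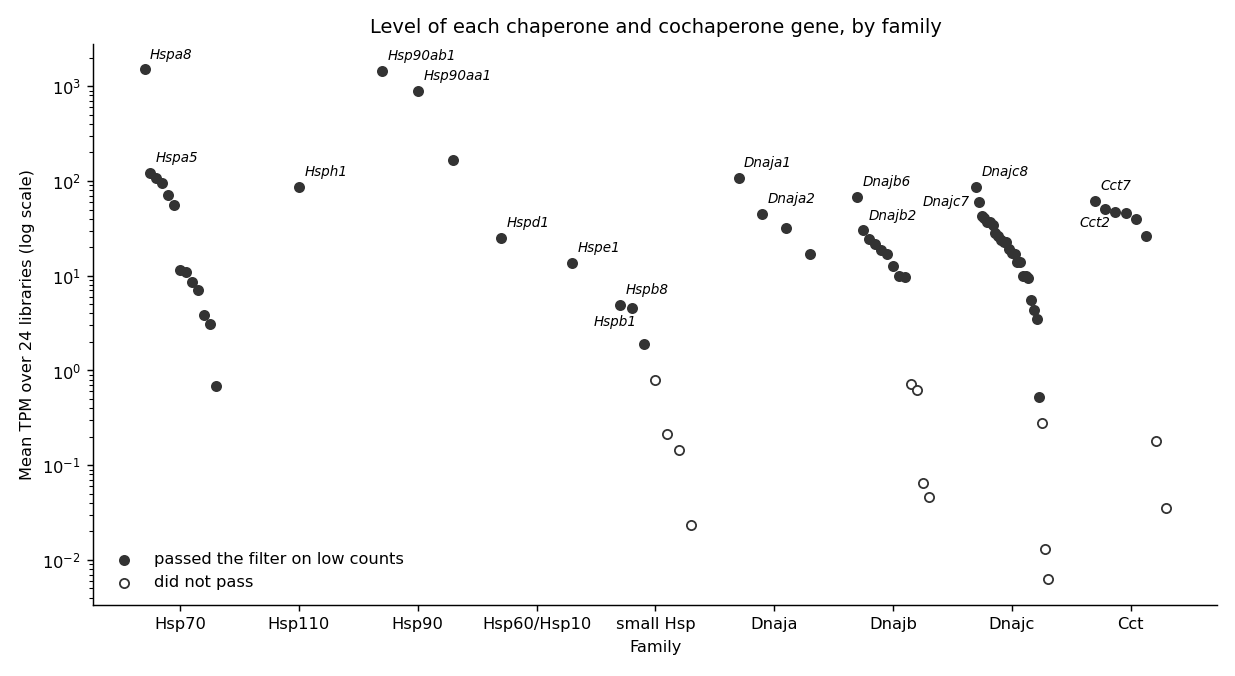
Mean TPM over the 24 libraries on a log scale for each of the 78 members with any count, by family; filled points passed the filter on low counts and open points did not. Hspa8, Hsp90ab1 and Hsp90aa1 stand at 1503, 1439 and 894 TPM, while most Dnajb, Dnajc and Cct genes lie between 10 and 100 TPM.

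Most cochaperones lay lower. In all, 41 members averaged from 10 to 100 TPM, 15 from 1 to 10 TPM and 16 at or under 1 TPM. Among Dnajc genes, Dnajc8, a nuclear J-protein linked to splicing, averaged 86.7 TPM and Dnajc7, which binds both Hsp70 and Hsp90, averaged 60.1 TPM. Dnajc6, the neuronal clathrin-uncoating cofactor auxilin, averaged 42.4 TPM, and Dnajc5, the synaptic vesicle protein CSPα, averaged 40.8 TPM. The 6 tested Cct subunits were close to each other, between 26.4 TPM for Cct4 and 61.9 TPM for Cct7. The mitochondrial chaperonin was scarcer, with 25.3 TPM for Hspd1 and 13.7 TPM for Hspe1, while Hspa9, the mitochondrial Hsp70, averaged 94.2 TPM. Small heat shock protein genes were lowest: Hspb8 averaged 4.90 TPM, Hspb1 4.56 TPM, and the whole family took a median 0.245% of member TPM. The members that were not tested (Hspb2, Hspb3, Hspb7, Hspb9, Hspb11, Dnajb3, Dnajb7, Dnajb8, Dnajb13, Dnajc5b, Dnajc5g, Dnajc22, Cct6b and Cct8l1) had a count in at most 6 libraries, and Hspb9 had none in any.

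Replicates varied least for the Hsp90 genes and widely for the small heat shock protein and mitochondrial chaperonin genes. The median coefficient of variation (SD over mean, in CPM) of the 3 Hsp90 genes was 31.0% in supplemented Ts65Dn, 20.1% in control-diet Ts65Dn, 9.48% in supplemented 2N and 12.4% in control-diet 2N libraries. That of the 3 tested small heat shock protein genes was 144%, 198%, 168% and 98.3% in the same order of groups, and that of Hspd1 and Hspe1 was 168%, 95.6%, 67.1% and 37.2%. In the Cct family it was 39.4%, 69.7%, 32.0% and 55.2%, with a wider spread among control-diet Ts65Dn libraries than in the other groups. Low genes such as Hspb1 therefore varied widely between libraries of a group, and Hspb1 was at 0 in 11 of 24 libraries. This spread does not separate counting error from differences between animals or in cell content.

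Genotype was compared first among offspring of dams on the control diet. None of the 65 tested members passed an adjusted p of 0.05 in the quasi-likelihood F-test of edgeR, adjusted by Benjamini-Hochberg over 19967 genes, where 67 genes or 0.336% passed. At an unadjusted p under 0.05 there were 5 members (7.69%), against 10.9% of all genes tested. DESeq2 and limma-voom also called 0 members, with 5 and 10 members at an unadjusted p under 0.05 (7.69% and 15.4%), against 11.4% and 10.9% of all genes, of which they called 1.67% and 0.015%. The fitted log2 fold changes were below 0 for 49 of 65 members, with a median of -0.36, while the median of all genes tested was -0.02. No member had groups that did not overlap in CPM, against 0.631% of all genes tested.

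Abundant cytosolic chaperones were among the members with lower values in control-diet Ts65Dn libraries, by differing amounts. Hsp90ab1 ranged from 1073 to 1861 CPM (median 1545) in control-diet Ts65Dn and from 1577 to 2064 CPM (median 1718) in control-diet 2N libraries. The fitted log2 fold changes of the 3 Hsp90 genes ran from -0.65 to -0.26. Hsp90aa1 ranged from 449 to 946 CPM (median 612) in control-diet Ts65Dn and from 760 to 1295 CPM (median 1006) in control-diet 2N libraries. All 6 Ts65Dn libraries lay below the mean of the 2N libraries, although the ranges overlapped, and the fitted log2 fold change was -0.65 (SE 0.22, adjusted p = 0.201 by edgeR). Hspa8 ranged from 928 to 2277 CPM (median 1265) in control-diet Ts65Dn and from 1456 to 3106 CPM (median 2052) in control-diet 2N libraries, a log2 fold change of -0.50 (SE 0.28, adjusted p = 0.558 by edgeR). The Ts65Dn values were split, with 2 libraries at 2251 and 2277 CPM and 4 libraries at 928 to 1266 CPM. Hsph1, the Hsp110 exchange factor of the cytosol, ranged from 73.8 to 199 CPM (median 134) in control-diet Ts65Dn and from 145 to 267 CPM (median 213) in control-diet 2N libraries, a log2 fold change of -0.60 (SE 0.27, adjusted p = 0.373 by edgeR). With no filter on low counts, where 39538 genes were tested and 0.647% were called, Hsp90aa1 (-0.67) and Hspa8 (-0.52) passed the threshold in edgeR, with adjusted p of 0.0169 and 0.00622. Over all alternatives the adjusted p of Hsp90aa1 in this comparison ran from 0.0169 to 0.796 and that of Hspa8 from 0.00622 to 0.956.

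**Figure D2:**
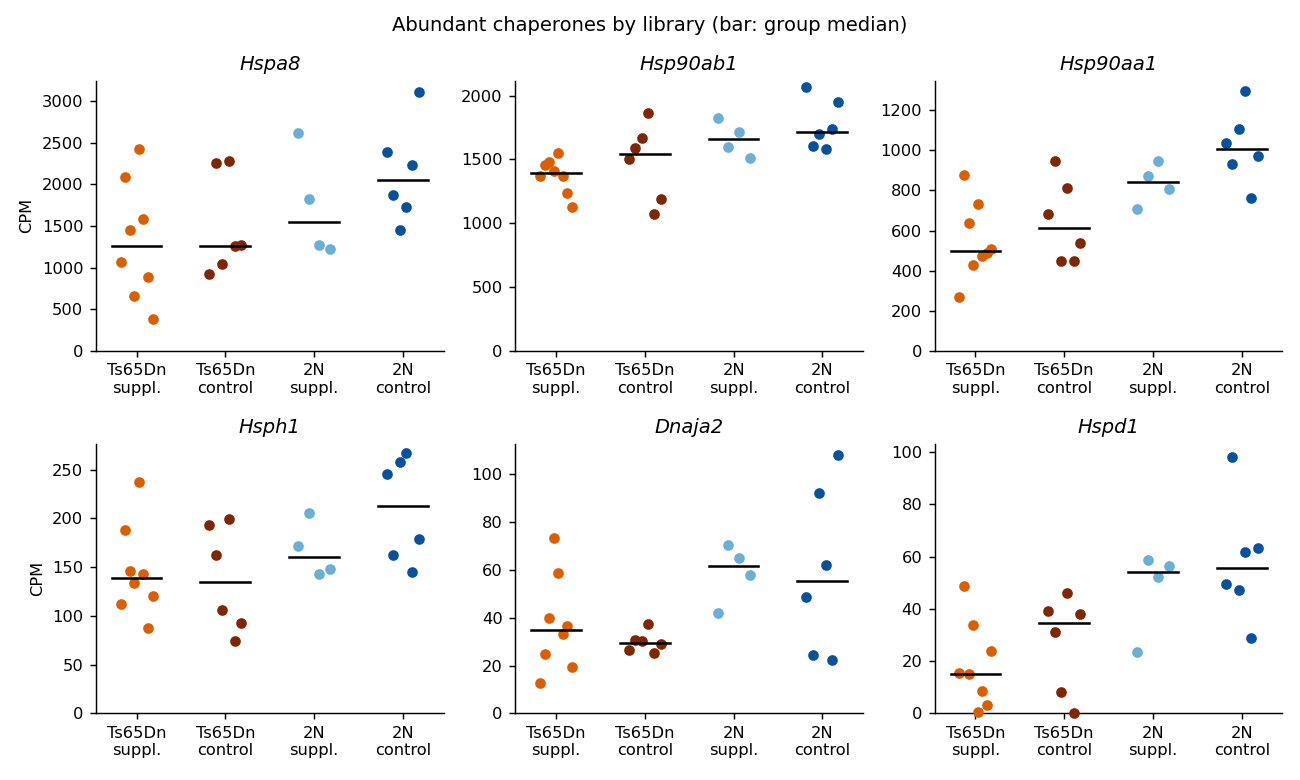
CPM of 6 members in each library, by group; points are libraries and bars are group medians. For Hsp90aa1 the medians are 497 (supplemented Ts65Dn), 612 (control-diet Ts65Dn), 840 (supplemented 2N) and 1006 CPM (control-diet 2N), and the groups overlap.

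Among J-domain partners of Hsp70, all 4 Dnaja genes had fitted values below 0 (median -0.66), as did 6 of 9 tested Dnajb genes (median -0.36). Dnaja2, a cytosolic cochaperone of Hspa8, ranged from 25.4 to 37.5 CPM (median 29.6) in control-diet Ts65Dn and from 22.2 to 108 CPM (median 55.3) in control-diet 2N libraries. The Ts65Dn values were tightly grouped and lay within the wide 2N range, and the log2 fold change was -1.0 (SE 0.43, adjusted p = 0.334 by edgeR). Dnajb5, a J-protein also called Hsc40, had the highest fitted value of its family and ranged from 58.3 to 189 CPM (median 96.7) in control-diet Ts65Dn and from 22.9 to 98.0 CPM (median 33.5) in control-diet 2N libraries. Its log2 fold change was 1.39 (SE 0.43, 95% interval 0.52 to 2.26, adjusted p = 0.188 by edgeR), and 5 of 6 2N libraries lay below every Ts65Dn library. The 2 highest Dnajb5 values, 189 and 152 CPM, were those of control-diet Ts65Dn replicates 5 and 3, which are among the 3 libraries with the lowest cholinergic sums.

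Among the remaining families, 17 of 24 tested Dnajc genes had values below 0 (median -0.26), and the one with the smallest p-value was Dnajc27, a Rab-related J-protein, at -0.78 (SE 0.33, adjusted p = 0.328 by edgeR). The lowest fitted value was that of Dnajc17 (-2.04), which was at 0 in 5 of 24 libraries. Dnajc14, a J-protein of the endoplasmic reticulum membrane, had a value of 0.81 (SE 0.60). In the Cct ring 5 of 6 tested subunits had values below 0 (median -0.43). Of the mitochondrial members, 7 of 8 had values below 0 (median -0.59), and Hspd1 had 0.269 to 46.0 CPM (median 34.6) in control-diet Ts65Dn against 28.8 to 98.3 CPM (median 55.7) in control-diet 2N libraries. A set of 9 members of the endoplasmic reticulum had a median of -0.23, with Hspa5 at 101 to 266 CPM (median 181) in control-diet Ts65Dn and 143 to 224 CPM (median 197) in control-diet 2N libraries. The set was Hspa5, Hsp90b1, Hspa13, Dnajb9, Dnajb11, Dnajc1, Dnajc3, Dnajc10 and Dnajc25. It is not a full list and left out Dnajb12, Dnajb14, Dnajc14 and Dnajc16, also of the endoplasmic reticulum. Mean levels in control-diet Ts65Dn and control-diet 2N libraries were 52.1 and 36.1 CPM for Dnajb12 and 37.7 and 21.5 CPM for Dnajc14. They were 58.1 and 87.7 CPM for Dnajb14 and 39.4 and 47.9 CPM for Dnajc16. No member of these families was called.

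The 3 control-diet Ts65Dn libraries with the lowest cholinergic marker sums also had the lowest mean member scores of their group. Their summed member levels were 5860, 5809 and 5278 CPM, against 6298, 8413 and 8551 CPM in replicates 1, 2 and 4. Averaged over the 65 tested members as centred log2 CPM, control-diet Ts65Dn replicates 3, 5 and 6 had scores of -0.75, -0.63 and -0.56, and replicates 1, 2 and 4 had -0.02, 0.12 and 0.37. The 6 control-diet 2N libraries had scores from 0.01 to 0.56, among them 0.43 and 0.38 in replicates 3 and 4, whose glutamatergic sums were of the size seen in Ts65Dn replicates 5 and 6. The lowest score of all, -0.82, was that of supplemented Ts65Dn replicate 7, with a cholinergic sum of 208 CPM, and supplemented Ts65Dn replicate 5 had -0.37 at 314 CPM. The score weights all members equally, so low genes count as much as abundant ones. Supplemented Ts65Dn replicate 5 had the highest summed member level of its group (8560 CPM) but detected 13833 genes. Supplemented replicate 7 and control-diet replicate 3 detected 13141 and 13102. The part of gene detection in the score was not tested. Without replicates 3, 5 and 6, the median log2 fold change of members was -0.16 and that of all genes was -0.13, and 0 members had an unadjusted p under 0.05, against 8.04% of all genes tested. Calls over all genes were 3 in that fit (0.0141%), which has 3 fewer libraries. Hsp90aa1 was then at -0.34, Hspa8 at -0.24, Hsph1 at -0.20 and Dnajb5 at 0.95. The part of cell content in the genotype values was not tested. Titles give each animal an ID that begins with 14, 15, 16 or 17, and within the 4 Ts65Dn and 4 2N control-diet libraries that begin with 17, which include replicates 3, 5 and 6, the median was -0.48, Hsp90aa1 was at -0.86 and Dnajb5 at 1.25.

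**Figure D3:**
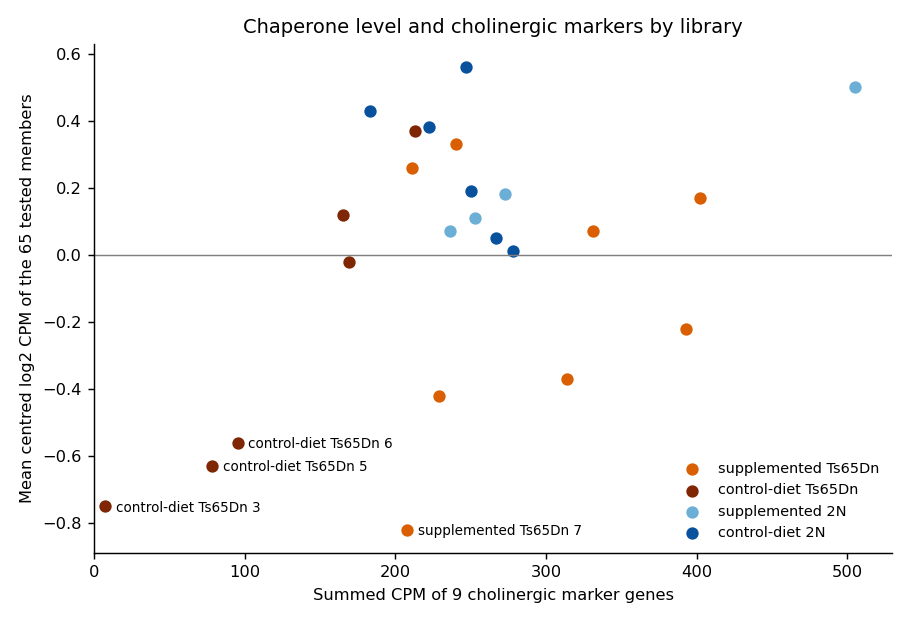
Each point is 1 library; the x axis is the summed CPM of 9 cholinergic marker genes and the y axis the mean centred log2 CPM of the 65 tested members, coloured by group. Control-diet Ts65Dn replicates 3, 5 and 6 lie at the lower left, with scores of -0.75, -0.63 and -0.56, and supplemented Ts65Dn replicate 7 has the lowest score (-0.82) at 208 CPM.

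The same genotype comparison was made among offspring of supplemented dams. None of the 65 members was called by edgeR, where 0.18% of all genes tested were called. DESeq2 and limma-voom also called 0 members, and 2.1% and 0.275% of all genes. At an unadjusted p under 0.05 there were 4 members by edgeR (6.15%), against 9.49% of all genes, and all 4 had lower values in Ts65Dn. DESeq2 and limma-voom had 4 and 11 members (6.15% and 16.9%), against 9.26% and 10.8% of all genes. Of 65 members, 41 had fitted values below 0, with a median of -0.28 against 0.09 for all genes tested. No member's groups failed to overlap, against 0.606% of all genes.

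Dnajc15, a J-protein of the mitochondrial inner membrane, had the smallest p-value of this comparison. Its level was 11.3 to 48.9 CPM (median 25.1) in supplemented Ts65Dn libraries, against 96.8, 39.7, 116 and 69.6 CPM in supplemented 2N libraries. All 8 Ts65Dn libraries lay below the 2N mean and 1 of the 4 2N libraries lay inside the Ts65Dn range, with a log2 fold change of -1.57 (SE 0.49, 95% interval -2.55 to -0.58, adjusted p = 0.249 by edgeR). Hsp90aa1 was 269 to 878 CPM (median 497) in supplemented Ts65Dn libraries, against 707, 871, 949 and 809 CPM in supplemented 2N libraries, a log2 fold change of -0.60 (SE 0.23, adjusted p = 0.424 by edgeR). Only the 2 highest of the 8 Ts65Dn values, 878 and 731 CPM in replicates 2 and 5, reached the 2N range. Dnajb14, a J-protein of the endoplasmic reticulum membrane, was 20.4 to 93.7 CPM (median 61.4) in supplemented Ts65Dn libraries, against 119, 115, 70.5 and 113 CPM in supplemented 2N libraries, a log2 fold change of -0.84 (SE 0.36, adjusted p = 0.437 by edgeR). Hspa1l, a testis-enriched Hsp70, also had an unadjusted p under 0.05, but its fit rests on 17.1 and 1.97 CPM in 2 of the 4 supplemented 2N libraries, and its median was 0 in both Ts65Dn groups.

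By family, all 3 Hsp90 genes had fitted values below 0 (median -0.42), as did 10 of 13 Hsp70 genes (median -0.49) and 8 of 9 endoplasmic reticulum members (median -0.66). Dnajb12, Dnajb14, Dnajc14 and Dnajc16 were outside that set of 9. Mean levels in supplemented Ts65Dn and supplemented 2N libraries were 58.2 and 104 CPM for Dnajb14 and 29.2 and 21.5 CPM for Dnajc14. They were 47.4 and 38.7 CPM for Dnajb12 and 58.6 and 47.1 CPM for Dnajc16. Hspa5 was 82.8 to 247 CPM (median 162) in supplemented Ts65Dn libraries, against 332, 273, 252 and 110 CPM in supplemented 2N libraries. Hspd1 was 0.599 to 48.9 CPM (median 15.2) in supplemented Ts65Dn libraries, against 23.6, 58.8, 52.1 and 56.5 CPM in supplemented 2N libraries, and its interval reached 0 (log2 fold change -1.35, 95% interval -2.70 to 0.00). Dnajc genes did not share this direction, with 14 of 24 above 0 (median 0.12). Supplemented Ts65Dn libraries also had the highest mitochondrial ribosomal RNA shares (median 32.9%, against 20.2% in supplemented 2N libraries), and its part in these values was not tested. Leaving out supplemented Ts65Dn replicates 2 and 5, whose Chat levels of 53.6 and 40.7 CPM and whose summed member levels of 8098 and 8560 CPM were the highest of their group, moved the median to -0.37 and gave 12 members at an unadjusted p under 0.05 (18.5%, against 11% of all genes tested), with 0 members and 150 of all genes called (0.768%). Hsp90aa1 was then at -0.83, Hspa8 at -0.79 (-0.40 with them), Dnajb14 at -1.13 and Dnajc15 at -1.62. Leaving out the libraries with the highest summed member levels lowers the abundant members on the Ts65Dn side. The values without them are therefore no separate evidence on genotype.

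Maternal supplementation was compared within Ts65Dn mice. The diets were uneven in ID number. IDs beginning with 17 belonged to 4 control-diet and 1 supplemented Ts65Dn libraries, and those beginning with 15 to 0 and 4. Diet and ID number can therefore not be fully told apart. With the ID number as a factor 0 members were called, and the median of members was -0.02. None of the 65 members was called by edgeR, DESeq2 or limma-voom, which called 0.13%, 1.21% and 0.02% of all genes tested. By edgeR 1 member had an unadjusted p under 0.05 (1.54%), against 9.62% of all genes. DESeq2 and limma-voom had 2 and 1 (3.08% and 1.54%), against 10.3% and 9.49% of all genes. The members split evenly, 33 above and 32 below 0, with a median of 0.01, and no member's groups failed to overlap, against 0.0701% of all genes.

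The 1 member by edgeR was Dnajb5. It was 12.2 to 86.3 CPM (median 33.6) in supplemented Ts65Dn libraries and 58.3 to 189 CPM (median 96.7) in control-diet Ts65Dn libraries. All 8 supplemented libraries lay below the control-diet mean and 2 of them, at 64.9 and 86.3 CPM, lay inside the control-diet range, with a log2 fold change of -1.42 (SE 0.39, 95% interval -2.21 to -0.62, adjusted p = 0.165 by edgeR). This comparison and the genotype comparison on the control diet share the 6 control-diet Ts65Dn libraries, in which Dnajb5 was high, and are not independent of each other. Over the alternatives the adjusted p ran from 0.0531 to 0.528, and without control-diet Ts65Dn replicates 3, 5 and 6 the log2 fold change was -0.98. Dnajb11, the endoplasmic reticulum J-protein ERdj3, was 0 to 12.6 CPM (median 7.96) in supplemented and 2.56 to 36.5 CPM (median 17.5) in control-diet Ts65Dn libraries, a log2 fold change of -1.50 (SE 0.81, adjusted p = 0.596 by edgeR). The abundant members overlapped between the diets: Hsp90aa1 had a median of 497 CPM in supplemented and 612 CPM in control-diet Ts65Dn libraries, and Hspa8 had medians of 1260 and 1265 CPM in the same groups. Their fitted log2 fold changes were -0.23 and -0.19. Without supplemented Ts65Dn replicates 2 and 5 they were -0.47 and -0.58, without control-diet Ts65Dn replicates 3, 5 and 6 they were -0.55 and -0.45, without the libraries over 50 Xist counts they were -0.04 and -0.20, and with the ID number as a factor Hspa8 was at -0.62. The median of members without supplemented Ts65Dn replicates 2 and 5 was -0.12, with 4 members at an unadjusted p under 0.05 (6.15%, against 10.3% of all genes), and Dnajb5 was at -1.27.

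In 2N mice no member was called between the diets by edgeR, DESeq2 or limma-voom, which called 0.00501%, 1.11% and 0.0351% of all genes tested. By edgeR 0 members had an unadjusted p under 0.05, against 6.92% of all genes. DESeq2 and limma-voom had 1 and 3 members (1.54% and 4.62%), against 5.96% and 7.91% of all genes. The median was -0.05, with 28 members above and 37 below 0, against a median of -0.06 for all genes. Dnaja3, a mitochondrial J-protein also called Tid1, was the 1 member whose groups did not overlap (54.5, 38.4, 41.3 and 46.8 CPM in supplemented against 20.5 to 37.5 CPM in control-diet 2N libraries), against 1.34% of all genes, and it is named after its values were seen. Dnajc15 was 96.8, 39.7, 116 and 69.6 CPM in supplemented against 24.0 to 62.6 CPM (median 45.3) in control-diet 2N libraries, a log2 fold change of 0.85 (SE 0.52, adjusted p = 0.979 by edgeR). With 4 supplemented libraries, intervals in this comparison were wide. IDs beginning with 17 belonged to 4 control-diet and 0 supplemented 2N libraries, so here too diet and ID number cannot be fully told apart.

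The genotype by diet interaction asks whether the diet difference in Ts65Dn differs from that in 2N mice. No member was called by edgeR, DESeq2 or limma-voom, which called 0.00501%, 1.38% and 0% of all genes tested. DESeq2 and limma-voom had 1 and 0 members at an unadjusted p under 0.05, against 7.81% and 8.55% of all genes. By edgeR 1 member had an unadjusted p under 0.05 (1.54%), against 8.43% of all genes. That member was Dnajc17, a J-protein with an RNA recognition motif, with an interaction of 5.26 (SE 2.35, adjusted p = 0.524 by edgeR). Its level was at most 33.8 CPM and it was at 0 in 5 of 24 libraries, so the estimate rests on a low gene. The median interaction of the members was 0.06, against 0.13 for all genes tested. The median interaction of the set of 9 endoplasmic reticulum members was -0.47, with 7 of 9 below 0 and 0 called. Dnajb12, Dnajb14, Dnajc14 and Dnajc16 were not in this set.

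**Figure D4:**
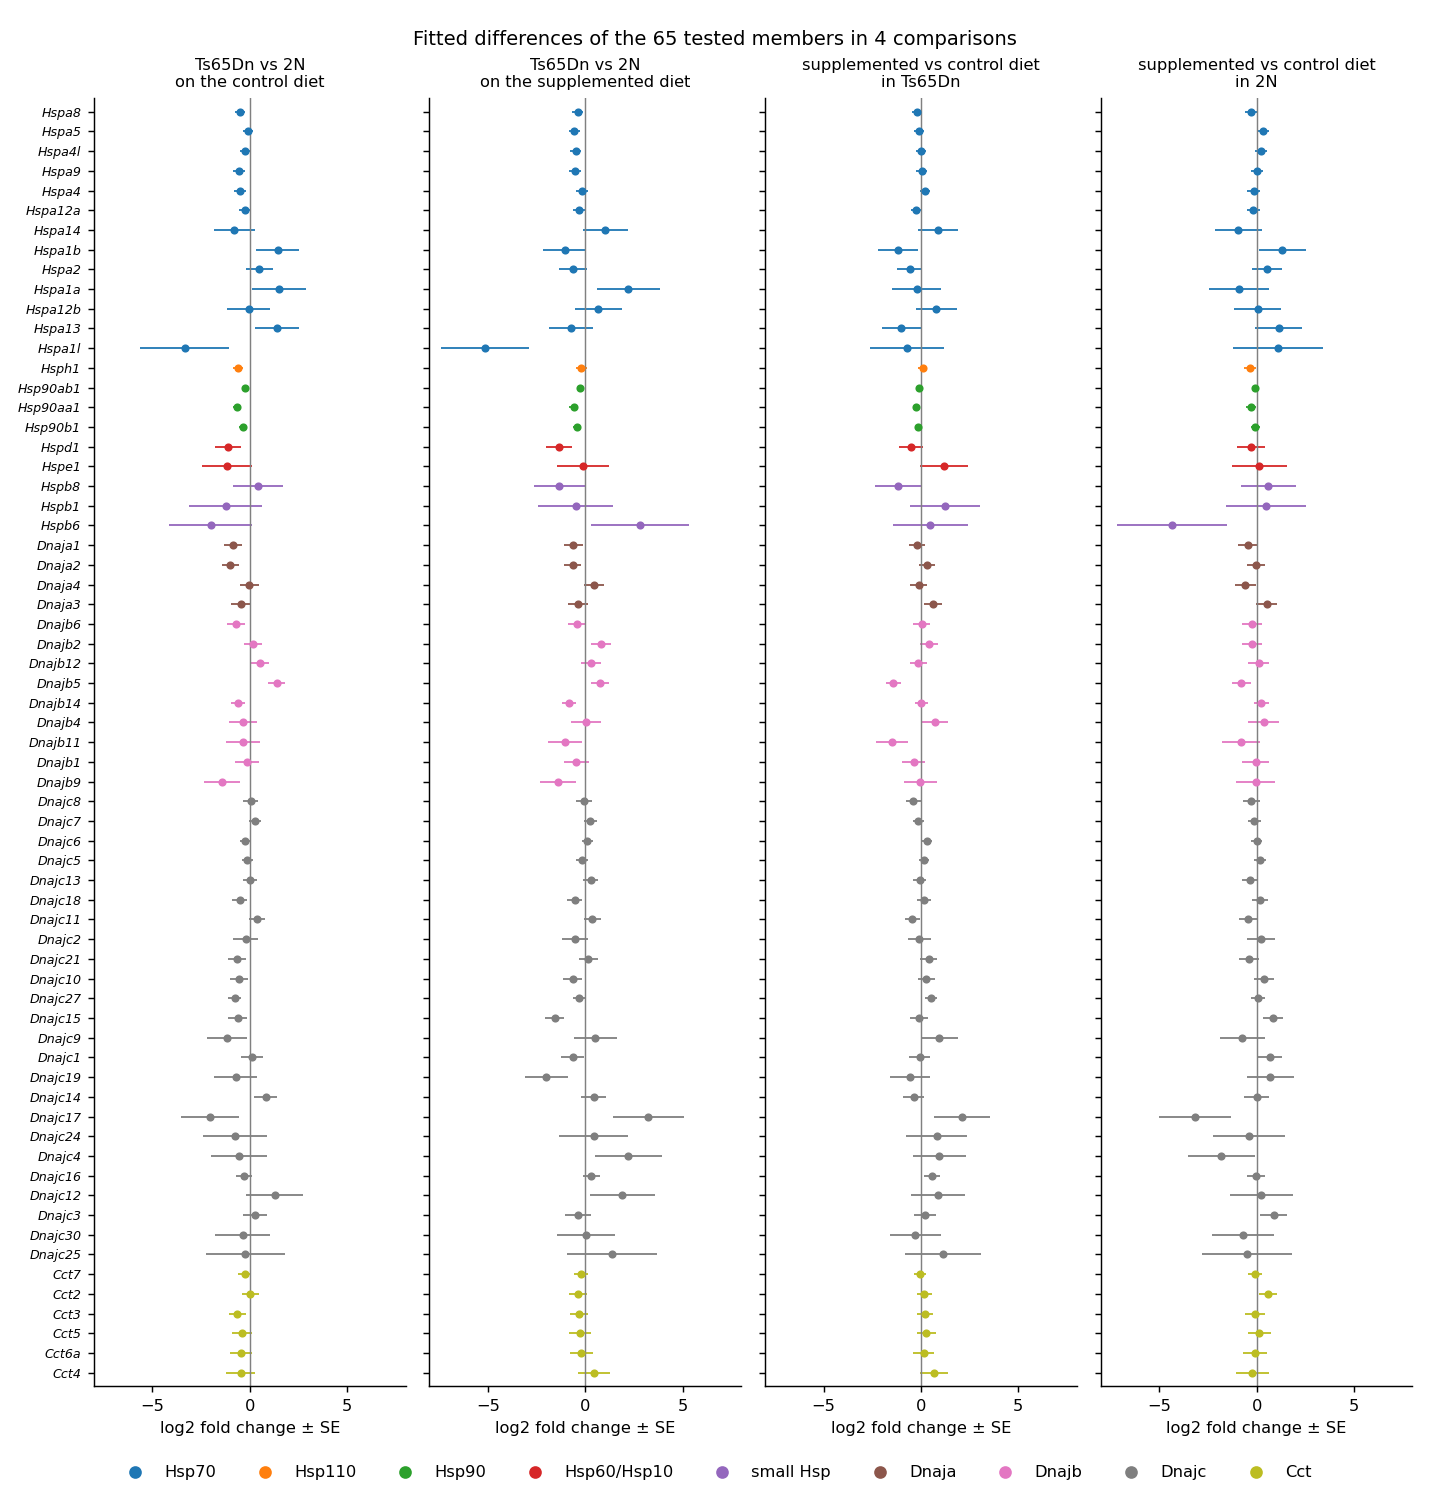
Log2 fold change with its SE for each of the 65 tested members (rows, by family and falling mean TPM) in 4 comparisons (columns). Most members lie left of 0 in both genotype comparisons (49 of 65 and 41 of 65), abundant Hsp70 and Hsp90 genes have short bars, and low genes such as Hspa1l and Hspb6 have long ones.

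Heat-inducible members were read as a check of the stress state. Hspa1a and Hspa1b are near-identical copies between which reads of 50 bases are hard to place, so each is uncertain by itself: 9 and 5 libraries had Hspa1a and Hspa1b at 0, and no library had both at 0. Their sum was 5.09 to 123 CPM (median 31.0) in supplemented Ts65Dn, 35.3 to 137 CPM (median 77.3) in control-diet Ts65Dn, 20.7, 126, 27.3 and 18.5 CPM in supplemented 2N and 9.91 to 81.5 CPM (median 20.0) in control-diet 2N libraries. Control-diet Ts65Dn libraries had the highest median, but 2 supplemented Ts65Dn libraries (123 and 116 CPM), 1 supplemented 2N library (126 CPM) and 1 control-diet 2N library (81.5 CPM) exceeded it, and all groups overlapped. Dnajb1, the J-protein that pairs with the inducible Hsp70, had medians of 22.7 CPM in supplemented Ts65Dn, 32.1 in control-diet Ts65Dn, 32.8 in supplemented 2N and 28.8 in control-diet 2N libraries. Its fitted differences were within 1 SE of 0 in the genotype comparisons, and the sum of Hspa1a and Hspa1b was not tested.

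**Figure D5:**
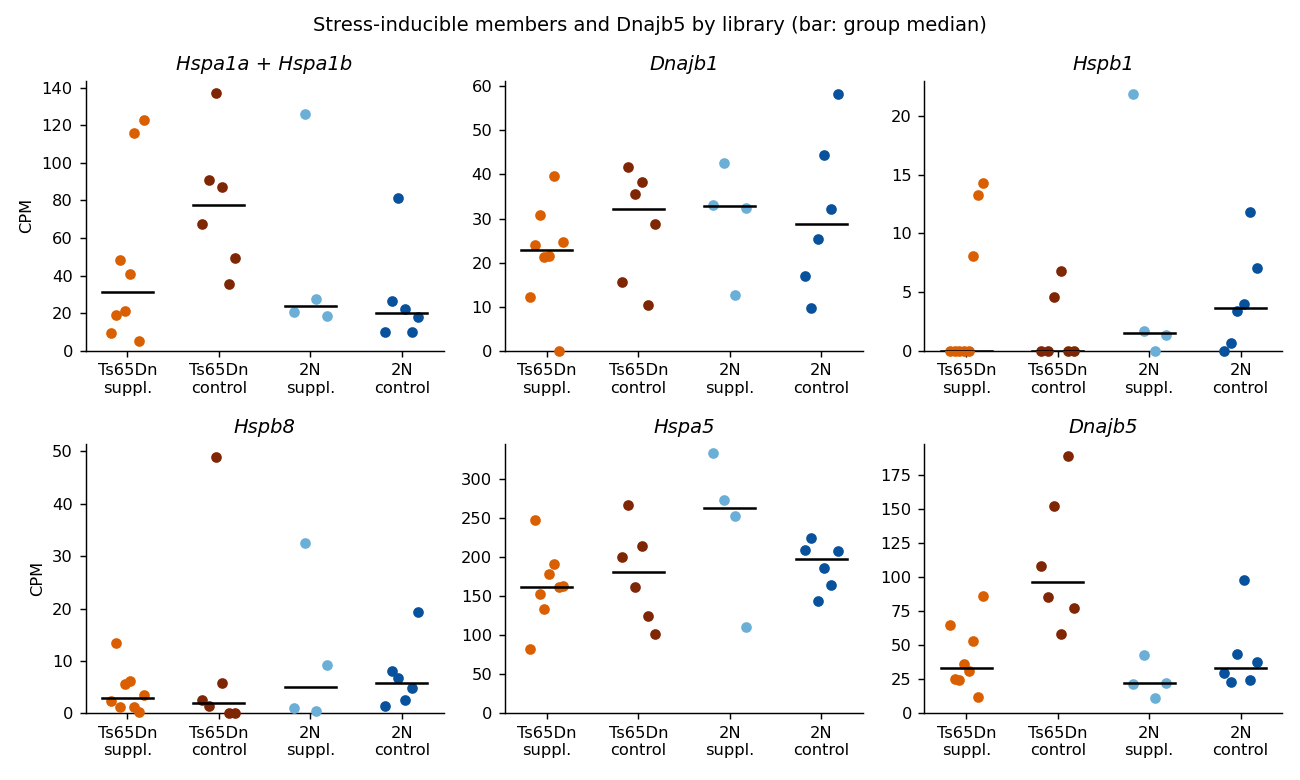
CPM in each library, by group, for the sum of Hspa1a and Hspa1b and for Dnajb1, Hspb1, Hspb8, Hspa5 and Dnajb5; points are libraries and bars are group medians. Dnajb5 has a median of 96.7 CPM in control-diet Ts65Dn libraries, against 33.6, 22.2 and 33.5 CPM in supplemented Ts65Dn, supplemented 2N and control-diet 2N libraries.

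Members were compared library by library, after removal of the group means, as 5 pairs over 24 libraries. The pairs were heat shock genes, endoplasmic reticulum members, the most abundant members, neighbours with a shared start region and near-identical copies. Hsp90aa1, Hspa8 and Hsp90ab1 had no start-region window, so a shared element was not searched for in their pairs. Log2 CPM of Hsp90aa1 and Hsph1 had a Pearson r of 0.72 and a Spearman rho of 0.80 (permutation p = 0.0009 and 0.00014, adjusted over the 5 pairs 0.0045 and 0.0007). The r was 0.76 without the 2 libraries farthest from the median of Hsp90aa1, 0.92 within the 9 libraries whose ID begins with 17, and 0.71 over the 20 libraries other than control-diet Ts65Dn replicates 3, 5 and 6 and supplemented Ts65Dn replicate 7. Hspa5 and Hsp90b1, both of the endoplasmic reticulum and both with the stress element, had an r of 0.60 and a rho of 0.58 (permutation p = 0.00186 and 0.00449, adjusted 0.00465 and 0.0112), and the r was 0.61 without the 2 farthest libraries, 0.65 within ID 17 and 0.62 over those 20 libraries. Hspa8 and Hsp90ab1, the most abundant pair, had an r of 0.56 and a rho of 0.53 (permutation p = 0.00387 and 0.0123, adjusted 0.00645 and 0.0205), with an r of 0.44 without the 2 farthest libraries, 0.55 within ID 17 and 0.72 over the same 20 libraries. Hspd1 and Hspe1, which share a start region, had an r of 0.33 and a rho of 0.33 (permutation p = 0.225 and 0.16, adjusted 0.225 and 0.2), and the r was -0.09 without the 2 farthest libraries, 0.79 within ID 17 and 0.42 over the 20 libraries. Hspa1a and Hspa1b had an r of -0.29 and a rho of -0.17 (permutation p = 0.203 and 0.439, adjusted 0.225 and 0.439), with an r of -0.26 without the 2 farthest libraries, -0.44 within ID 17 and -0.26 over the 20 libraries. Genes measured in the same libraries share depth and cell content. Of all other tested genes, 0.0601% had an r with Hsp90aa1 as high as that of Hsph1, and 0.135% had an r with Hspa5 as high as that of Hsp90b1. The share was 0.811% for Hspa8 with Hsp90ab1, 14.0% for Hspd1 with Hspe1 and 93.2% for Hspa1a with Hspa1b. These other genes were not matched for level, so the shares do not measure shared depth or cell content.

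Partners outside the symbol rule were described from a list of 63 genes, all of which were tested: 3 heat shock regulators, 27 partners of Hsp70 and Hsp90, 9 of the chaperonin, 7 of mitochondria, 16 of the endoplasmic reticulum and Cryab. None was called in any of the 5 comparisons by edgeR. At an unadjusted p under 0.05 there were 6 partners for genotype on the control diet, 4 for genotype on the supplemented diet, 4 for diet in Ts65Dn, 0 for diet in 2N and 2 for the interaction, or 9.52%, 6.35%, 6.35%, 0% and 3.17%. The shares over all genes tested were 10.9%, 9.49%, 9.62%, 6.92% and 8.43% in the same order. All but 1 of the 16 endoplasmic reticulum partners were below 0 for genotype on the supplemented diet (median -0.47), where the median of all genes was 0.09.

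On the control diet the partners with the smallest p-values were Tcp1, a subunit of the Cct ring with 41.2 ± 28.8 CPM in Ts65Dn and 91.4 ± 12.3 CPM in 2N libraries (SD, n = 6 each; edgeR log2 fold change -1.15, adjusted p = 0.236), and Hspbp1, an Hsp70 exchange factor (1.31, adjusted p = 0.340). On the supplemented diet they were St13, which stabilises the Hsp70 client complex (-0.83, adjusted p = 0.363 by edgeR), and Atf4, a transcription factor of the integrated stress response (-1.03, adjusted p = 0.425). Between the diets in Ts65Dn they were Cdc37, which brings kinases to Hsp90 and had 68.5 ± 23.3 CPM in supplemented and 126 ± 30.1 CPM in control-diet libraries (SD, n = 8 and 6; edgeR log2 fold change -0.87, adjusted p = 0.219), and Atf4 (-0.85, adjusted p = 0.387). In 2N mice they were Tomm70a, a mitochondrial import receptor (-0.88, adjusted p = 0.734 by edgeR), and Bag1, an Hsp70 exchange factor (-0.86, adjusted p = 0.776). For the interaction they were Atf4 (-1.65, adjusted p = 0.354 by edgeR) and Atf6, a sensor of endoplasmic reticulum stress (-1.63, adjusted p = 0.57).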

How the data were processed

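RNA-seq of laser-captured neurons was analysed in 24 libraries of 4 groups, taken from the labels. Per the labels' protocols, libraries were made with a stranded pico-input total RNA kit and sequenced as single reads of 50 cycles. Trimmomatic 0.39, STAR and RSEM are named in the submitters' processing notes, which list GRCm39 and mm10, with no roles stated. The authors deposited RSEM expected counts and TPM values per gene. The expected counts, deposited by the authors, were rounded to whole numbers. Gene symbols came from GENCODE M21 (52133 of 55414 identifiers matched), and Cct6a became a member through its RefSeq class.

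Genes were kept by edgeR's filterByExpr (minimum count 10), scaled by TMM and tested with quasi-likelihood F-tests in 1 fit over all 4 groups (edgeR 4.0.16, limma 3.58.1, DESeq2 1.42.0, R 4.3.3), with Benjamini-Hochberg adjustment over 19967 genes and a threshold of 0.05. The biological coefficient of variation was 1.40. Counts of 19967 genes were simulated for diet in Ts65Dn, with 200 genes drawn from the better counted ones changed 4-fold. Of these, 63 were recovered, and 4 unchanged genes were called, so changes of that size were often missed among the genes drawn. Recovery was not split by the spread of a gene, in which the members differ widely. The log2 CPM used a prior count of 2. Differences were also seen under DESeq2 size factors, other filters, DESeq2, limma-voom with quality weights, only the compared groups, the ID number as a factor and libraries left out.

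TPM was used to compare genes and CPM to compare groups, because TPM moved the median of all genes by -0.58 (log2) for genotype on the supplemented diet, against -0.04 in CPM. Named members were, per family, the 2 with the highest mean TPM, per comparison and direction the 3 with the smallest p, and 23 fixed members. The members, lists and tests were chosen with earlier results of these data known. The labels do not say which animals are littermates, so p-values treat animals as independent. The start-region sequences are RefSeq's. No 2 libraries of a group agreed in more than 1.3% of genes with counts, and each matrix column equalled its per-sample table.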

Additional observations from a re-analysis of the deposited data

Results flagged for a closer look

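Values that lie far from the others of their group, by Dixon's gap test at 95% on log2 CPM, were sought in 156 groups of values of named members. There were 13 such values, and chance gives about 1 in 20 groups. Supplemented Ts65Dn replicate 7, which detected few genes, was low for Dnajb1 (0 CPM, against 12.3 to 39.6 in the others of its group), Dnajc5 (37.9 CPM, against 101 to 186) and Cct5 (1.70 CPM, against 22.1 to 95.3). Control-diet Ts65Dn replicate 3 was low for Dnajb2 (5.31 CPM, against 28.6 to 49.6) and replicate 5 for Hspd1 (0.269 CPM, against 8.20 to 46.0), and these are libraries with low cholinergic marker sums. Control-diet Ts65Dn replicate 4 had Hspa1b at 0 CPM (against 17.4 to 137) while its Hspa1a was 87.2 CPM, and reads of these copies are hard to place.

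In supplemented 2N libraries, Hspd1 was low in replicate 1 (23.6 CPM, against 52.1 to 58.8), Dnajb14 was low in replicate 3 (70.5 CPM, against 113 to 119), and Hspb6 was 1.08 CPM in replicate 4 and 0 in the others. In control-diet 2N libraries, replicate 2 was low for Dnajc15 (24.0 CPM, against 44.8 to 62.6) and Dnajc16 (21.1 CPM, against 45.9 to 62.2). Replicate 6 was high for Dnajc3 (33.4 CPM, against 10.4 to 15.7) and replicate 4 was low for Dnajc6 (141 CPM, against 171 to 191). No cause was tested for any of these values.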

How the results depend on the processing

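The number of called members was 0 in 121 of 122 counts over the 5 comparisons and their alternatives, and 2 (Hsp90aa1 and Hspa8) for genotype on the control diet with no filter on low counts, where the cause was not tested. Leaving out each library in turn gave 0 called members throughout (0 to 0 in each comparison). The median log2 fold change of members ran from -0.50 to -0.24 for genotype on the control diet outside the exclusion of replicates 3, 5 and 6 (-0.16), from -0.37 to -0.19 for genotype on the supplemented diet, from -0.12 to 0.15 for diet in Ts65Dn, from -0.13 to 0.03 for diet in 2N and from -0.15 to 0.20 for the interaction. Of 4754 values of named members, 4625 moved by less than 1 SE and 363 had the other sign. Many of these alternatives left out only 1 library and share most of their data with the main fit, so the count is a weak check. On the TPM scale 22 of 36 family ratios moved by less than 1 SD. Leaving out libraries over 50 Xist counts, supplemented Ts65Dn replicates 2 and 5, or control-diet Ts65Dn replicates 3, 5 and 6 was chosen after seeing the data. No paired analysis was possible because replicate numbers were assigned in accession order and pair no animals. Depth limits the 15 members between 1 and 10 TPM and those below.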
